A study of Homo sapiens with 60 samples.

Results

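Polygalae Radix, the dried root of Polygala, was applied to cultured astrocytoma cells as a water extract at 10 µg/mL, the lowest dose of any extract in the study, and its transcriptome is set here against that of vehicle-treated cells. The 3 libraries with this treatment label and the 3 labelled 0.1% DMSO make up 6 of the 60 libraries. All came from SW1783, an established human astrocytoma line grown in L-15 medium with serum, harvested after 24 h. The study covers 20 groups of 3 libraries each, and the groups used here besides these 6 libraries are Polygalae extract at 50 µg/mL, Polygalae extract at 250 µg/mL and the 20 µg/mL doses of the other herbs, chiefly Aucklandiae Radix. Per the series description, the top dose of the more inhibitory extracts was set from an inhibitory concentration, and the lower doses are dilutions of it. DMSO in the vehicle is 0.1% by the treatment label but 2% by the series description, and none is stated for the extracts. A single cell line in monoculture limits the groups as a model of astrocytes or of tumour tissue.

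Several gene groups with called members at this dose belong to well-studied systems. NRF2 is a transcription factor that is held inactive by KEAP1 and, once released by electrophiles or oxidants, drives genes of heme breakdown, glutathione synthesis and thioredoxin reduction. TFEB and TFE3 are transcription factors that read lysosomal and nutrient state and drive genes of lysosomes and autophagy through a palindromic E-box. ATF4 and CHOP are induced when translation initiation is checked by phosphorylated eIF2α, the integrated stress response. Cells of mesenchymal character, such as many cultured glioma lines, also make collagens and matrix glycoproteins, which fold in the endoplasmic reticulum with the help of its chaperones.

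The libraries were comparable in size and close to each other within groups. Polygalae libraries held between 22.58 and 25.8 M (10 to the power of 6) expected counts, and Vehicle libraries between 26.45 and 28.46 M. Mitochondrially encoded transcripts took 7.87% to 11% of counts in the Polygalae libraries and 10.3% to 10.6% in the Vehicle libraries, the lowest share being that of Polygalae replicate 2. Log2 CPM (CPM being counts per M of the normalised library total) correlated within the 2 groups at Pearson's r between 0.9898 and 0.9919 across genes, and no 2 libraries agreed within sampling noise. The library names begin with A1 for Vehicle and with 4 for Polygalae and Aucklandiae, so the treatment and whatever that prefix stands for cannot be told apart in the vehicle comparison, although all titles carry 1 batch label. Whether replicates were separate cultures is not stated, so p-values measure the spread between libraries only, estimated over all 60 libraries of the 20 groups.

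The astrocyte markers GFAP and AQP4 were near or at 0, other astrocyte markers were expressed, and mesenchymal markers were abundant. GFAP, the glial intermediate filament, stayed at or below 0.195 CPM in Polygalae libraries and 0.219 CPM in Vehicle libraries, and AQP4, the water channel of astrocyte end-feet, was at 0 in all 6. Of the 11 astrocyte markers, 6 passed the expression filter. The 11 summed to between 341 and 359 CPM in Polygalae libraries and between 374 and 394 CPM in Vehicle libraries. GJA1 had 184 to 192 CPM in Polygalae libraries and 199 to 206 CPM in Vehicle libraries. SOX9 had 66.5 to 78.4 CPM and 75.9 to 84.3 CPM in the same order. The 10 mesenchymal glioma markers summed to between 11682 and 12327 CPM in Polygalae libraries and between 14202 and 14238 CPM in Vehicle libraries. Some markers of cells that a pure line should lack were at 0 in all 6 libraries. These were MOG, OLIG1 and SOX10 of oligodendrocytes, AIF1, P2RY12 and TYROBP of microglia and GAP43 of neurons. Other markers in such lists were expressed. Oligodendrocyte markers summed to between 139 and 140 CPM in Polygalae libraries and between 131 and 148 CPM in Vehicle libraries, nearly all CNP. Endothelial markers summed to between 42.5 and 49 CPM in Polygalae libraries and between 42.3 and 46.8 CPM in Vehicle libraries, mostly KDR. Leukocyte and microglia markers summed to between 149 and 202 CPM in Polygalae libraries and between 189 and 200 CPM in Vehicle libraries, nearly all of it CD68, a lysosomal protein that many cell types make. Neuron markers summed to between 143 and 144 CPM in Polygalae libraries and between 164 and 168 CPM in Vehicle libraries, most of it TUBB3. Their part in the results below was not tested. In bulk RNA, fewer cells of a kind and less RNA per cell cannot be told apart.

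At 10 µg/mL, 1150 genes differed in level from Vehicle, most of them modestly. Called members went higher with 0 lower among NRF2 targets (10 of 26), lysosome and autophagy genes (13 of 32) and interferon-stimulated genes (8 of 24). They went lower with 0 higher among collagens (11 of 19), matrix glycoproteins (10 of 29), matrix proteases and inhibitors (7 of 20) and genes of the unfolded protein response (6 of 21). The other members of these lists did not pass the test, and no list was tested as a set. HMOX1, which encodes the heme-degrading enzyme heme oxygenase, had the largest rise among the genes named by rule, 3.72-fold, and PADI2, a peptidylarginine deiminase, the largest fall. Of 17792 tested genes, 535 were higher and 615 were lower in Polygalae than in Vehicle cells at an adjusted p under 0.05 by edgeR's quasi-likelihood test with Benjamini-Hochberg adjustment. These are 6.46% of tested genes in either direction, 3.01% higher and 3.46% lower.

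The changes were small in size and broad in reach. A change of at least 2-fold was reached by 46 of the higher and 18 of the lower genes. The median log2 fold change was 0.35 among the higher genes and -0.33 among the lower genes, and 0.00 over all tested genes. Among the higher genes 94.6% were protein-coding and among the lower genes 94.8%, against 77.7% of all tested genes. The 3 Polygalae libraries lay wholly beyond the 3 Vehicle libraries for 528 of the higher and 610 of the lower genes, whereas 29.1% of all tested genes had groups that did not overlap. Detection depended on level: calls made up 1.04% of the lowest quintile of genes by Vehicle level and 10.2% of the highest quintile. The count was 679 without Polygalae replicate 2, 761 without Vehicle replicate 2, 734 without Vehicle replicate 3, and 2475 without replicate 1 of the high Liriopis dose, a library outside the comparison that shares in the estimate of the spread. The comparison drew on 36 gene lists, with 136 called members, of which 56 lost their call when at least 1 of the 6 libraries was left out. Those named are marked as such.

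**Figure D1:**
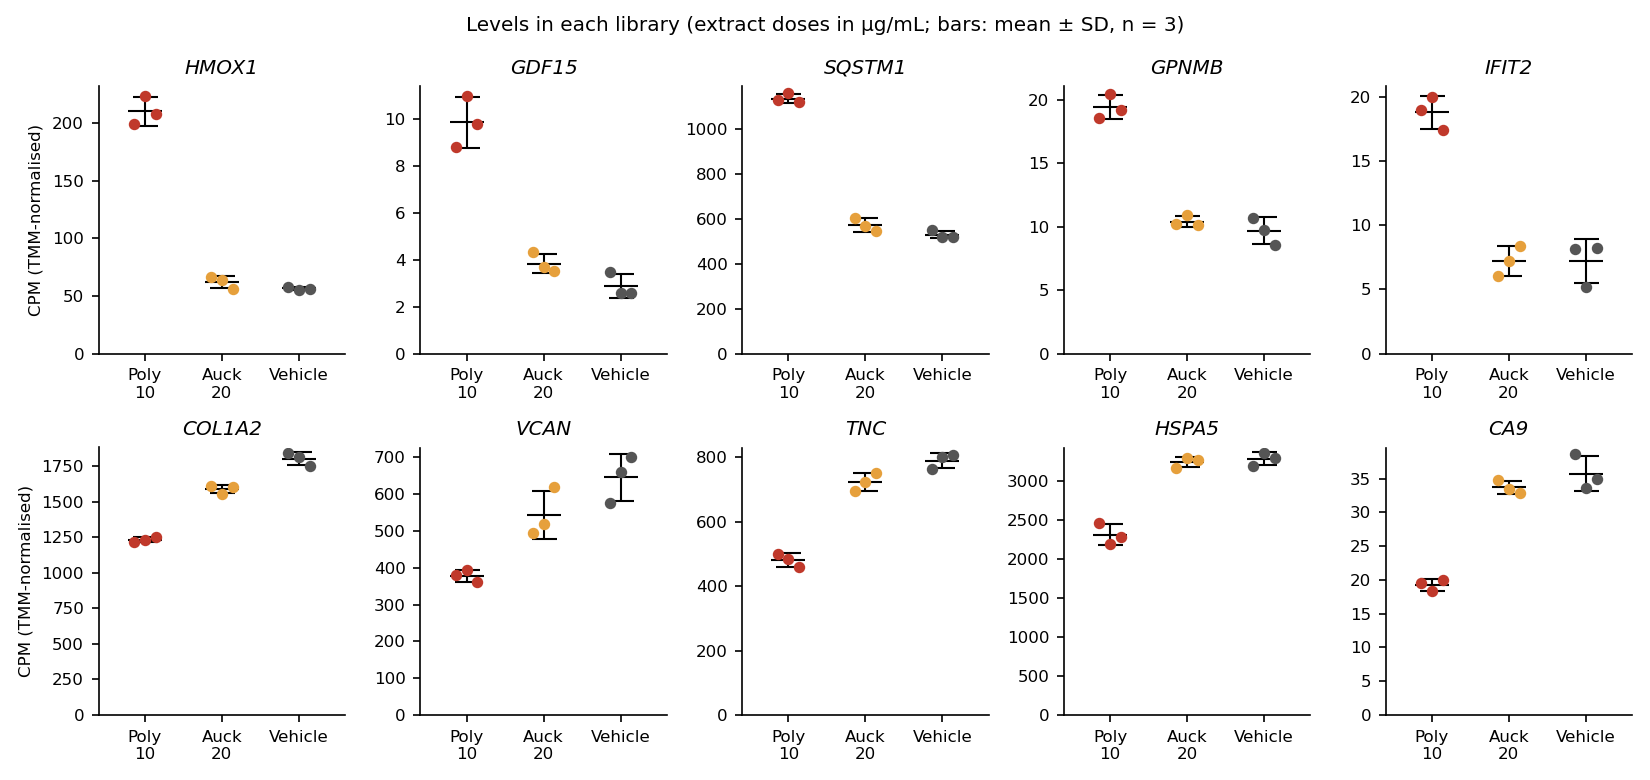
Levels of 10 genes in each library, in CPM from 0, for Polygalae 10 µg/mL, Aucklandiae 20 µg/mL and Vehicle (points: libraries; bars: mean ± SD, n = 3). In every panel the 3 Polygalae points lie apart from the 3 Vehicle points, above them in the upper row and below them in the lower row.

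Part of the NRF2 target list rose, and HMOX1 rose most. HMOX1 (chr22:35380361-35394214, GRCh38) had 199, 224 and 208 CPM in Polygalae cells, against 58.1, 55.5 and 56 CPM in Vehicle cells. The lowest Polygalae library was far above the highest Vehicle library. The log2 fold change was 1.90 (SE 0.10, edgeR adjusted p = 3e-19). Of 26 tested NRF2 targets, 10 rose and 0 fell, 38.5% of the list beside 6.46% of all tested genes, with a median log2 fold change of 0.13 over the list beside 0.00 over all genes. Between 10 and 11 were called with any 1 of the 6 libraries left out. SRXN1, which repairs oxidised peroxiredoxins, had 114, 112 and 114 CPM in Polygalae cells and 91.5, 85.7 and 88.1 CPM in Vehicle cells, a log2 fold change of 0.36 (edgeR adjusted p = 2e-07).

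Other NRF2 targets that rose serve thioredoxin, glutathione and growth control, and the ferritin genes FTL and FTH1 are given below. TXNRD1, thioredoxin reductase, had 396, 420 and 394 CPM in Polygalae cells and 279, 281 and 281 CPM in Vehicle cells, with no overlap (log2 fold change 0.53, edgeR adjusted p = 2.1e-08). OSGIN1, an oxidative stress-induced growth inhibitor, had 26.5, 29.1 and 30.3 CPM in Polygalae cells and 17.9, 15.2 and 15.6 CPM in Vehicle cells (log2 fold change 0.82, edgeR adjusted p = 9.1e-11). The cystine importer SLC7A11 had a log2 fold change of 0.59, and GCLC and GCLM, the 2 subunits of the enzyme that starts glutathione synthesis, had 0.33 and 0.26. GSR, which reduces oxidised glutathione, had a log2 fold change of 0.22. NQO1, a quinone reductase often read as an NRF2 marker, was not called, with a log2 fold change of 0.12 (edgeR adjusted p = 0.58).

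Iron storage and iron import moved in opposite directions. FTL, the ferritin light chain, had 2023, 1899 and 2098 CPM in Polygalae cells and 1355, 1313 and 1213 CPM in Vehicle cells, a log2 fold change of 0.63 (edgeR adjusted p = 0.0026). FTH1, the ferritin heavy chain, had a log2 fold change of 0.47 (edgeR adjusted p = 0.0035). Both have many processed pseudogenes, so their counts may be shared with near-identical copies. TFRC, the transferrin receptor that imports iron, had 849, 860 and 800 CPM in Polygalae cells and 1110, 1139 and 1159 CPM in Vehicle cells, and fell by 0.44 on the log2 scale (edgeR adjusted p = 0.013). ACO1, the iron-responsive RNA-binding aconitase, fell by 0.21 and ALAS1, the entry enzyme of heme synthesis, rose by 0.35 on that scale. The call was lost for TFRC without Polygalae replicate 3 or Vehicle replicate 3 (edgeR adjusted p up to 0.074) and for ACO1 without Polygalae replicate 3 (edgeR adjusted p = 0.093). Over the 13 tested genes of heme, iron and ferritin, 4 rose and 2 fell, 46.2% of the list beside 6.46% of all tested genes. HMOX1, FTL and FTH1 are members of the NRF2 list too. None of the 6 tested metallothioneins and zinc genes was called.

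The letters of the antioxidant response element, to which NRF2 binds, were looked up in the promoters. The core searched was TGACNNNGC on both strands, in RefSeq windows (GRCh38.p14) of 300 bases, 250 before the start site and 50 from it on. Of the 17792 tested genes 11986 had a window. A gene was counted if any of its windows held the core, and the number of windows differed between genes. The core was present in 27.8% of higher genes (110 of 395), 19.9% of lower genes (95 of 477) and 19.2% of all tested genes, each with a window. The windows of GCLM (chr1:93909381-93909680, minus strand) and TXNRD1 (chr12:104215529-104215828, plus strand) are shown with the core in capitals. GCLM and TXNRD1 were the only called NRF2 targets in which the core was found. HMOX1, SLC7A11 and FTH1 had no window. Some genes that fell held the core too, among them PADI2, COL4A5 and LTBP1. TXNRD1 has a further window with the core, at chr12:104286782-104287081, which is not shown.
GCLM: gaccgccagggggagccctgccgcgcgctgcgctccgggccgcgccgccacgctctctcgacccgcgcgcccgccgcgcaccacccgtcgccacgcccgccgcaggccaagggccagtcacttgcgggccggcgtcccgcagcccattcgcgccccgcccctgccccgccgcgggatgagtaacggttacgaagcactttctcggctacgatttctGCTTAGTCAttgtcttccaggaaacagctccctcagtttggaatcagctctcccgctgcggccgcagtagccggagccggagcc
TXNRD1: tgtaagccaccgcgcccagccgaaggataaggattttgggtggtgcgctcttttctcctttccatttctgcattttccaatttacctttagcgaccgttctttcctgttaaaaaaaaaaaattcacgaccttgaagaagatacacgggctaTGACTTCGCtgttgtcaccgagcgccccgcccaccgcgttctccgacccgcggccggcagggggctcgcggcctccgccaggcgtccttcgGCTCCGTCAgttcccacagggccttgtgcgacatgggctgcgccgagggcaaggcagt
In GCLM the match begins at position -34 and in TXNRD1 matches begin at -99 and -8, counted from the start site and given 5′ to 3′ on the gene's strand. These are matches of letters, with no evidence of binding in these data.

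Genes of the lysosome and of autophagy formed the list with the most rises of the 36. Of 32 tested members 13 rose and 0 fell, 40.6% of the list beside 6.46% of all tested genes, with a log2 median of 0.29. Between 13 and 15 were called with any 1 of the 6 libraries left out. SQSTM1 (chr5:179806398-179838078), the p62 cargo receptor of selective autophagy, had 1129, 1159 and 1118 CPM in Polygalae cells and 548, 520 and 521 CPM in Vehicle cells. The groups did not overlap, and the log2 fold change was 1.10 (SE 0.07, edgeR adjusted p = 6.9e-16). SQSTM1 is also a known NRF2 target. GPNMB, a lysosomal and melanosomal glycoprotein, had 18.6, 20.5 and 19.2 CPM in Polygalae cells and 10.7, 9.75 and 8.58 CPM in Vehicle cells, a log2 fold change of 1.00 (edgeR adjusted p = 1.5e-12).

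The called members of this list included 4 regulators of nutrient signalling at the lysosomal surface, grouped here after their values were seen. FLCN, folliculin, which acts on the Rag GTPases, had 66.2, 72.4 and 68 CPM in Polygalae cells and 43.4, 40.1 and 42.3 CPM in Vehicle cells, a log2 fold change of 0.72 (edgeR adjusted p = 1.6e-11). Its partner FNIP1 had a log2 fold change of 0.69 and the Rag GTPases RRAGC and RRAGD had 0.68 and 1.43. RRAGD was low, with 1.17, 0.674 and 0.951 CPM in Polygalae cells and 0.402, 0.36 and 0.27 CPM in Vehicle cells. Proton pump subunits rose as well, ATP6V1B2 from the catalytic sector by 0.50 and ATP6V1H by 0.42 on the log2 scale. NPC1, the lysosomal cholesterol exporter, had a log2 fold change of 0.68, the calcium channel MCOLN1 0.38 and the protease CTSD 0.37. The autophagosome proteins GABARAPL1 and MAP1LC3B had 0.44 and 0.34. The membrane protein LAMP1 and the protease CTSB were not called, at 0.07 (edgeR adjusted p = 0.33) and -0.04 (edgeR adjusted p = 0.77), nor was the transcript of TFEB itself, at -0.19 (edgeR adjusted p = 0.52).

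The palindromic E-box TCACGTGA, the core of the element that TFEB and TFE3 read, was found in the promoter windows of 31 of 395 higher genes (7.85%) and 0 of 477 lower genes, against 253 of 11986 tested genes (2.11%). It reads the same on both strands, and its ends can overlap the antioxidant core by the letters TGA or TCA. The 31 genes with the box were looked up after their values were seen. They include the channel gene MCOLN1 and the Batten disease gene CLN3 (log2 fold change 0.39, edgeR adjusted p = 0.0017). They also include the proton pump subunit ATP6V1G1 (0.39, edgeR adjusted p = 0.016). VPS11, a subunit of the complexes that tether endosomes and lysosomes, is among them too (0.24, edgeR adjusted p = 0.0151). Of the 13 called members of the lysosome list, MCOLN1 alone was among the 31, and RRAGD had no window. Others of the 31 have different functions, such as INSIG1 of the cholesterol list, HNRNPH2 and POLR3C. The windows of MCOLN1 (chr19:7522374-7522673, plus strand), CLN3 (chr16:28492025-28492324, minus strand) and ATP6V1G1 (chr9:114587519-114587818, plus strand) are shown because lysosomal function and the box meet in them, with the box in capitals.
MCOLN1: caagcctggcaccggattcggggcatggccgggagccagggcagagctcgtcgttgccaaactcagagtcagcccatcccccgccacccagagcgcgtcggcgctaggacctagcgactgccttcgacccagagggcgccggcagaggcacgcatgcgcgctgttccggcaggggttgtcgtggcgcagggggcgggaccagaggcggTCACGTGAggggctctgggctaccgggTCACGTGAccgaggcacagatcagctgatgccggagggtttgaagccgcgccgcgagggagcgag
CLN3: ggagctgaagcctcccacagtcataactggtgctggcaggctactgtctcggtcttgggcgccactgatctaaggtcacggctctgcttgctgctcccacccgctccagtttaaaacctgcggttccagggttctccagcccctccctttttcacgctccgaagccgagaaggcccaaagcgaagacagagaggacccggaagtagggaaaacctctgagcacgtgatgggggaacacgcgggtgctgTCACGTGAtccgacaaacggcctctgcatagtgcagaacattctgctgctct
ATP6V1G1: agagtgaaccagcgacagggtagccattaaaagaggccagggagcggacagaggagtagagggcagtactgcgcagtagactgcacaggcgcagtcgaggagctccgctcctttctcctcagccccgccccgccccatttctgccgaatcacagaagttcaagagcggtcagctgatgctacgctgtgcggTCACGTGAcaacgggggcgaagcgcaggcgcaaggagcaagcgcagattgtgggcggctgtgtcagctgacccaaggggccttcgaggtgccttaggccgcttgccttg
The MCOLN1 window holds the box at -42 and -15, that of CLN3 (1 of 2 overlapping windows that hold it) at -2 and that of ATP6V1G1 at -59. The 3 other cores searched gave these shares. The heat shock core GAANNTTC was in 7.59% of higher, 6.71% of lower and 6.67% of all tested genes with a window. The C/EBP-ATF core TGATGCAA was in 0.506%, 0.629% and 0.743%, and the sterol core TCACNCCAC in 1.01%, 2.52% and 1.44%, each in the same order.

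**Figure D2:**
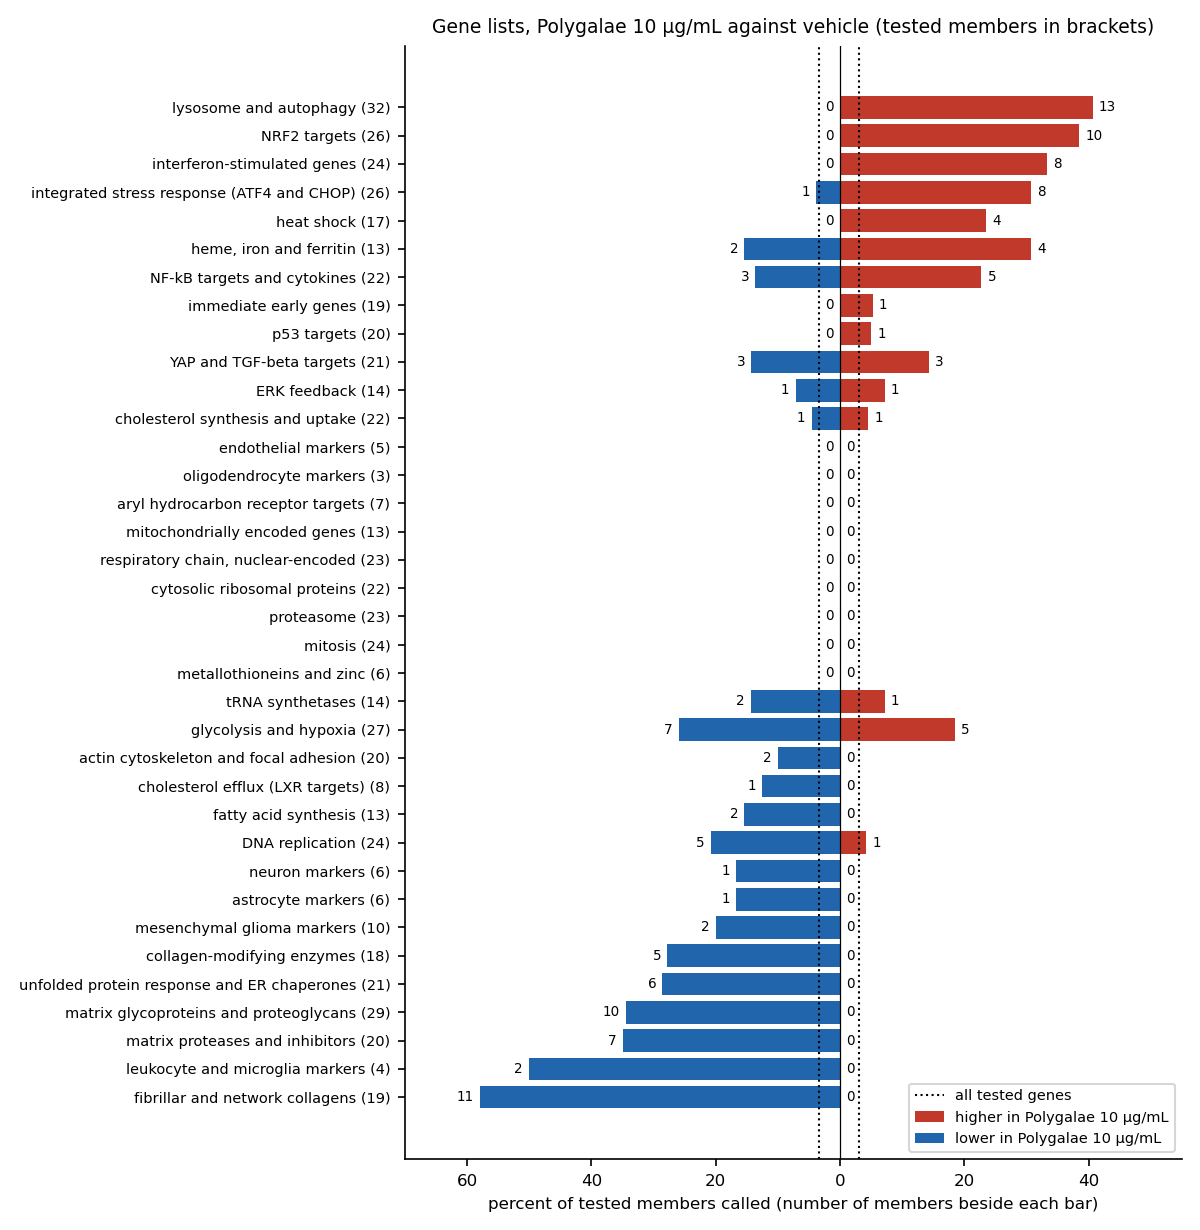
Share of the tested members of each of 36 gene lists called higher (right) or lower (left) in Polygalae 10 µg/mL against Vehicle, in percent, with the number of members at each bar and the share of all tested genes as dotted lines. Lysosome and autophagy genes (13 of 32) and NRF2 targets (10 of 26) stand at the higher end, and collagens (11 of 19) at the lower end.

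Part of the integrated stress response rose. GDF15 (chr19:18374731-18389176), a stress-secreted cytokine of the TGF-beta family, had 8.82, 11 and 9.82 CPM in Polygalae cells and 3.47, 2.59 and 2.59 CPM in Vehicle cells. All Polygalae libraries were well above all Vehicle libraries, and the log2 fold change was 1.77 (SE 0.16, edgeR adjusted p = 2.3e-11). PPP1R15A, the GADD34 subunit that restores translation, had 126, 120 and 124 CPM in Polygalae cells and 81.6, 78.3 and 77.7 CPM in Vehicle cells, a log2 fold change of 0.64 (edgeR adjusted p = 2.5e-07). NUPR1, a stress-induced chromatin protein, had a log2 fold change of 0.78, the amino acid transporter subunit SLC3A2 0.56, DDIT3, which encodes CHOP, 0.48, CEBPB 0.46, ATF4 itself 0.36 and the secreted hormone STC2 0.31. In all 8 of 26 tested members rose and 1 fell, 34.6% of the list beside 6.46% of all tested genes, with a list median of 0.00. The member that fell was MTHFD2, a mitochondrial folate enzyme, at -0.16. ATF4 lost its call without Polygalae replicate 3 or Vehicle replicate 3 (edgeR adjusted p up to 0.089), DDIT3 without any library other than Vehicle replicate 1 (up to 0.17), and CEBPB and MTHFD2 without any 1 of the 6 libraries (up to 0.18 and 0.2). Between 5 and 7 members were called with a library left out, 5 without Polygalae replicate 3 or Vehicle replicate 3. ASNS, asparagine synthetase, TRIB3 and CHAC1 were not called, at -0.24 (edgeR adjusted p = 0.12), 0.11 (edgeR adjusted p = 0.57) and 0.06 (edgeR adjusted p = 0.91). Of 14 tRNA synthetases (21.4% called), NARS1 rose by 0.19 and EPRS1 and LARS1 fell by 0.18 and 0.25 on the log2 scale. Without Vehicle replicate 3 none of these 3 synthetases kept its call, with edgeR adjusted p of 0.08, 0.063 and 0.1, and without Polygalae replicate 2 or replicate 3 only NARS1 did.

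Several chaperones of the endoplasmic reticulum fell. HSPA5, the luminal chaperone BiP, had 2453, 2186 and 2283 CPM in Polygalae cells and 3192, 3361 and 3289 CPM in Vehicle cells. Every Polygalae library was below every Vehicle library, and the log2 fold change was -0.51 (SE 0.06, edgeR adjusted p = 4.8e-08). HYOU1, an HSP110-type chaperone of the same compartment, had 412, 381 and 400 CPM in Polygalae cells and 521, 538 and 523 CPM in Vehicle cells (log2 fold change -0.41, edgeR adjusted p = 1.5e-06). HSP90B1 and the disulfide isomerase PDIA4 each fell by 0.32, PDIA3 by 0.25 and PDIA6 by 0.22 on the log2 scale. Of 21 tested genes of the unfolded protein response 6 fell and 0 rose, with a median of -0.14, and the other members were not called. The 6 were 28.6% of the list, beside 3.46% of all tested genes called lower. PDIA6 lost its call without Polygalae replicate 2 (edgeR adjusted p = 0.085). The count was 11 without replicate 1 of the high Liriopis dose.

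A few cytosolic heat shock genes rose slightly. HSPA1A and HSPA1B, the inducible HSP70 genes, each had a log2 fold change of 0.32 (edgeR adjusted p = 0.0031 and 0.013), the co-chaperones CHORDC1 and BAG3 had 0.30 and 0.25, and 4 of 17 tested members rose with 0 falls, with a list median of 0.08, beside 3.01% of all tested genes called higher. HSPA1A and HSPA1B are nearly identical in sequence, so reads may have been split between them, and HSPA1B lost its call without Polygalae replicate 2 (edgeR adjusted p = 0.084), Vehicle replicate 2 (0.051) or Vehicle replicate 3 (0.069). The heat shock count was 7 without replicate 1 of the high Liriopis dose. PHLDA3, which restrains AKT signalling, was the only called member of 20 tested p53 targets, with a log2 fold change of 0.46. That is 5% of the list, beside 6.46% of all tested genes, and 3 were called without that Liriopis library. No member of the tested lists of 24 mitosis genes, 23 proteasome subunits, 22 cytosolic ribosomal proteins, 23 nuclear-encoded respiratory chain subunits, 13 mitochondrially encoded genes or 7 aryl hydrocarbon receptor targets was called. In the fit without the Liriopis library these lists gave 2, 3, 0, 2, 1 and 2 calls.

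Interferon-stimulated genes rose without exception among those called, which were 33.3% of the list beside 6.46% of all tested genes. IFIT2, an RNA-binding antiviral protein, had 19, 20 and 17.4 CPM in Polygalae cells and 8.11, 5.22 and 8.23 CPM in Vehicle cells, a log2 fold change of 1.39 (SE 0.17, edgeR adjusted p = 4.8e-08). Its relative IFIT3 had 53.5, 49.7 and 47.9 CPM in Polygalae cells and 25.2, 20 and 22.3 CPM in Vehicle cells (log2 fold change 1.16, edgeR adjusted p = 7.6e-12). OASL, an oligoadenylate synthetase-like protein, had 18.2, 18.3 and 14.7 CPM in Polygalae cells and 8.44, 5.87 and 7.8 CPM in Vehicle cells (1.21, edgeR adjusted p = 2e-07). For all 3 genes the groups were separate. IFIT1 had a log2 fold change of 0.77, the RNA sensors IFIH1 and RIGI had 0.53 and 0.34, the transcription factor STAT2 had 0.41, and RSAD2, which was below 1 CPM in all 6 libraries, had 1.74. In all 8 of 24 tested members rose and 0 fell, with a median of 0.25, and 6 were called without Polygalae replicate 2 or without Vehicle replicate 1, where RIGI and IFIH1 lost their call (edgeR adjusted p up to 0.23 and 0.27), IFIH1 also without Vehicle replicate 2. MX1 and ISG15, common markers of interferon signalling, were not called, at 0.45 (edgeR adjusted p = 0.14) and 0.24 (edgeR adjusted p = 0.67).

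Cytokine and NF-kB target genes went both ways, with 36.4% of the list called beside 6.46% of all tested genes. ICAM1, an adhesion molecule for leukocytes, had 64.1, 65.3 and 62.7 CPM in Polygalae cells and 43.9, 45.2 and 43.9 CPM in Vehicle cells, a log2 fold change of 0.53 (edgeR adjusted p = 6e-06). The growth factor CSF1 rose by 0.38, LIF by 0.42, IL1B by 0.35 and the chemokine CXCL2, at about 1 CPM or below, by 0.97 on the log2 scale. IL11, a fibrosis-linked cytokine, had 36.7, 37.5 and 38.5 CPM in Polygalae cells and 70.1, 66.4 and 71.7 CPM in Vehicle cells, a log2 fold change of -0.88 (edgeR adjusted p = 3.4e-14). BIRC3, an apoptosis inhibitor, fell by 0.73 and CXCL8, which encodes interleukin-8, by 0.66. Of 22 tested members 5 rose and 3 fell, and 5 in all were called without Polygalae replicate 2, Vehicle replicate 1 or Vehicle replicate 2. CXCL8 lost its call without Polygalae replicates 1 or 2 (edgeR adjusted p up to 0.092), CXCL2 without any library but Polygalae replicate 3 (up to 0.18), IL1B without any but Polygalae replicate 2 or Vehicle replicate 3 (up to 0.34) and LIF without any but Polygalae replicates 1 or 3 (up to 0.1). KLF2 was the only called member of 19 immediate early genes, with a log2 fold change of 0.61. That is 5.26% of the list, below the 6.46% of all tested genes. KLF2 lost its call without Polygalae replicate 2 (edgeR adjusted p = 0.051), while 5 members were called without replicate 1 of the high Liriopis dose. Of ERK feedback genes 14.3% were called. Of 14 genes of ERK feedback SPRY2 rose by 0.22 and DUSP6 fell by 0.25 on the log2 scale, 2 calls that became 4 without the same Liriopis library, 1 without Polygalae replicate 2, Vehicle replicate 1 or Vehicle replicate 3 and 0 without Polygalae replicate 1. SPRY2 lost its call without Polygalae replicate 1 or Vehicle replicate 3 (edgeR adjusted p up to 0.083), and DUSP6 without these or Polygalae replicate 2 or Vehicle replicate 1 (up to 0.27).

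**Figure D3:**
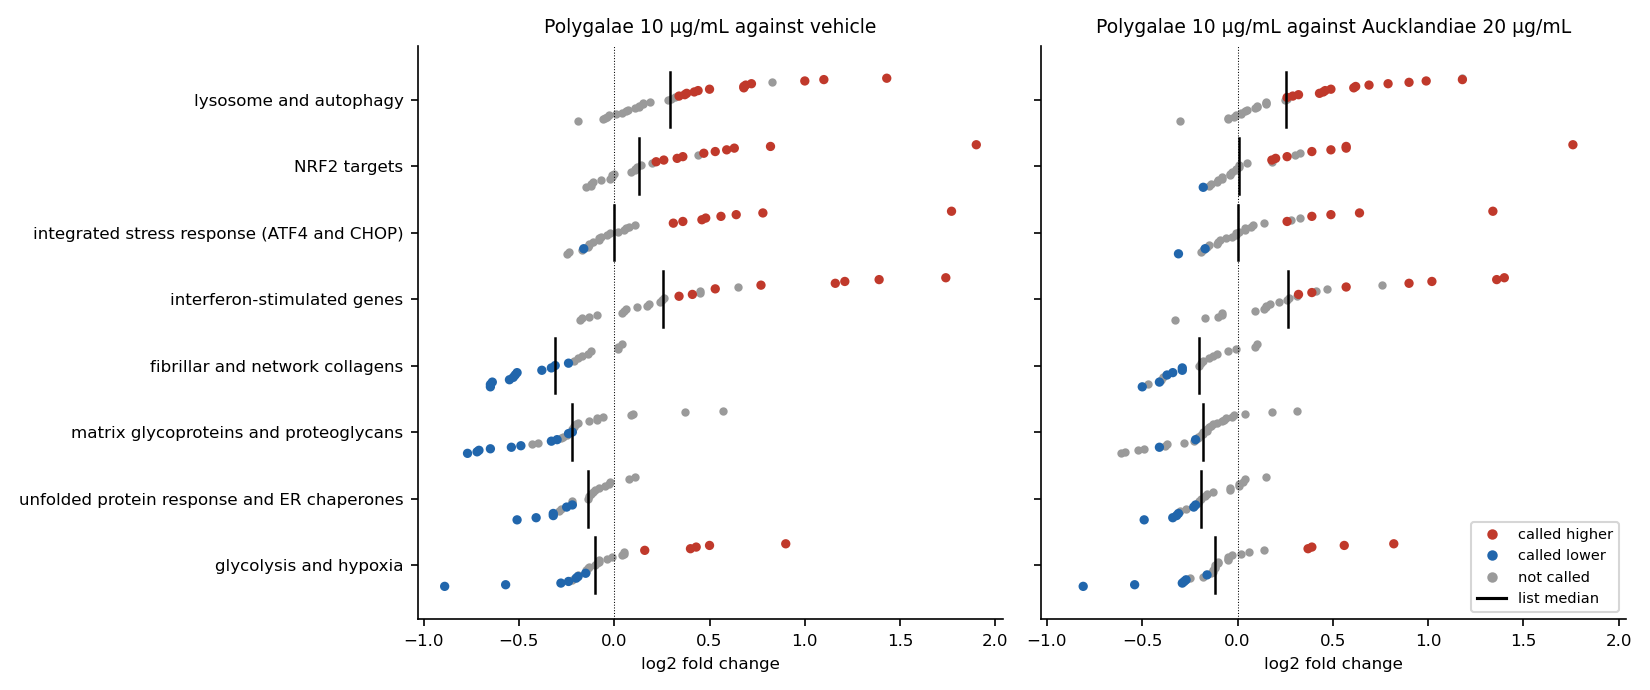
Log2 fold changes of the members of 8 gene lists, for Polygalae 10 µg/mL against Vehicle (left) and against Aucklandiae 20 µg/mL (right), coloured by call at an adjusted p under 0.05, with the list median as a bar. Lysosome genes lie mostly right of 0 and collagens mostly left of 0 in both panels, with medians of 0.29 and -0.31 on the left.

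Of the collagens, 11 of 19 fell. COL1A2 (chr7:94394561-94431232), a chain of type I collagen, had 1217, 1233 and 1251 CPM in Polygalae cells and 1842, 1816 and 1751 CPM in Vehicle cells. The groups were clearly separate, with a log2 fold change of -0.55 (SE 0.08, edgeR adjusted p = 2.1e-06). COL1A1, its partner chain, had 2710, 2466 and 2754 CPM in Polygalae cells and 3836, 3800 and 3671 CPM in Vehicle cells (log2 fold change -0.51, edgeR adjusted p = 5.5e-07). None of the 19 tested collagens rose, and the 11 that fell were 57.9% of the list, beside 3.46% of all tested genes called lower, with a median of -0.31, and 7 were called without Polygalae replicate 3. The basement membrane chain COL4A5 fell by 0.65 and COL3A1 of reticular fibres by 0.64 on the log2 scale. COL4A6, which lies head to head with COL4A5 and was named among the largest falls, had 51.9, 54.6 and 50.4 CPM in Polygalae cells and 87.2, 86.5 and 85.8 CPM in Vehicle cells (log2 fold change -0.73).

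Some matrix glycoproteins fell too, 10 of 29 (34.5%, beside 3.46% of all tested genes called lower). VCAN, the large proteoglycan versican, had 380, 393 and 360 CPM in Polygalae cells and 575, 660 and 700 CPM in Vehicle cells, a log2 fold change of -0.77 (SE 0.17, edgeR adjusted p = 0.0018). TNC (chr9:115019578-115118257), the glioma-associated glycoprotein tenascin C, had 499, 485 and 458 CPM in Polygalae cells and 762, 799 and 805 CPM in Vehicle cells, a log2 fold change of -0.71 (SE 0.19, edgeR adjusted p = 0.013). The groups did not overlap for either gene, and TNC lost its call without Polygalae replicate 2 (edgeR adjusted p = 0.052) or Polygalae replicate 3 (edgeR adjusted p = 0.065). Of 29 tested matrix glycoproteins and proteoglycans 10 fell and 0 rose, with a median of -0.22, and the microfibril protein FBN1, fibronectin (FN1) and the TGF-beta-binding LTBP1 were among them at -0.72, -0.65 and -0.54. FBN1 lost its call without any library but Polygalae replicate 2 or Vehicle replicate 1, and FN1 without any but Polygalae replicate 1 or Vehicle replicate 1, with edgeR adjusted p up to 0.08 and 0.06. The list's count was 4 without Polygalae replicate 2, 5 without Polygalae replicate 3, 6 without Vehicle replicate 2 and 20 without replicate 1 of the high Liriopis dose.

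Proteases, their inhibitors and enzymes of collagen maturation fell in part. Called shares were 35% for matrix proteases and inhibitors and 27.8% for collagen-modifying enzymes, beside 6.46% of all tested genes. They were 10% for actin and focal adhesion genes and 28.6% for YAP and TGF-beta targets. PLAT, the tissue-type activator of the clot-dissolving protease system, had 182, 185 and 185 CPM in Polygalae cells and 247, 240 and 248 CPM in Vehicle cells, a log2 fold change of -0.41 (edgeR adjusted p = 6.2e-10). The groups did not overlap. Of 20 tested matrix proteases and inhibitors 7 fell and 0 rose. The count was 4 without Polygalae replicate 1, 2 without Polygalae replicate 2 and 3 without Polygalae replicate 3, Vehicle replicate 2 or Vehicle replicate 3. Of these, MMP19 lost its call without Polygalae replicate 2 (edgeR adjusted p = 0.072), and ADAMTS1 lost its call without any single library other than Vehicle replicate 1, with edgeR adjusted p from 0.065 to 0.081. Of 18 collagen-modifying enzymes 5 fell, led by the lysyl hydroxylase PLOD2 at -0.38 and the prolyl hydroxylase P4HA1 at -0.34, with 3 calls without Polygalae replicate 1, Vehicle replicate 1 or Vehicle replicate 2 and 12 without replicate 1 of the high Liriopis dose. Of 20 genes of the actin cytoskeleton and focal adhesions MYH10 and ITGB1 fell by 0.30 and 0.21, with 10 calls without that Liriopis library. MYH10 lost its call without any 1 of the 6 libraries (edgeR adjusted p up to 0.16) and ITGB1 without Polygalae replicate 2, Polygalae replicate 3, Vehicle replicate 2 or Vehicle replicate 3 (up to 0.11). Targets of YAP and TGF-beta split evenly, 3 higher and 3 lower of 21. TGFB1 and AXL were among those that fell, and CCN1, CCN2 and ANKRD1 rose by 0.42, 0.50 and 0.50. ANKRD1 lost its call without Polygalae replicate 2 (edgeR adjusted p = 0.053), Polygalae replicate 3 (0.079) or Vehicle replicate 2 (0.088), TGFB1 without Polygalae replicate 1, Polygalae replicate 2 or Vehicle replicate 2 (up to 0.13), and AXL without Polygalae replicate 3 or Vehicle replicate 3 (up to 0.1).

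Glycolytic and hypoxia-responsive genes went both ways. CA9, a hypoxia-induced carbonic anhydrase of the cell surface, had 19.6, 18.3 and 20 CPM in Polygalae cells and 38.6, 33.6 and 35 CPM in Vehicle cells, a log2 fold change of -0.89 (edgeR adjusted p = 1.1e-05). EGLN3, an oxygen-sensing hydroxylase, fell by 0.57 and LDHA, PKM, PGK1, GPI and the lactate exporter SLC16A3 fell by 0.15 to 0.28 on the log2 scale. ADM, the vasodilator peptide adrenomedullin, had 18.1, 19.2 and 17.6 CPM in Polygalae cells and 9.97, 9.57 and 9.93 CPM in Vehicle cells, a log2 fold change of 0.90 (edgeR adjusted p = 1.5e-07). The glucose transporters SLC2A3 and SLC2A1 rose by 0.50 and 0.16, the enolase ENO2 by 0.43 and the arrestin ARRDC4 by 0.40. Of 27 tested members 5 rose and 7 fell, 44.4% of the list beside 6.46% of all tested genes, with a median of -0.10. PGK1 lost its call without any 1 of the 6 libraries and SLC2A1 without any but Vehicle replicate 1 (edgeR adjusted p up to 0.21 for each). GPI did so without Polygalae replicates 2 or 3 or Vehicle replicates 1 or 3 (up to 0.15), ARRDC4 without Polygalae replicate 2 or Vehicle replicates 1 or 3 (up to 0.18) and SLC16A3 without Vehicle replicate 1 (0.061).

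A few genes of lipid metabolism and 6 of 24 DNA replication genes were called, beside 6.46% of all tested genes. In cholesterol synthesis and uptake, DHCR7 fell by 0.25 and INSIG1 rose by 0.24 among 22 tested genes. In fatty acid synthesis ACLY and ACSS2 fell by 0.31 and 0.26 among 13, ACLY losing its call without any 1 of the 6 libraries (edgeR adjusted p up to 0.14), and 7 fell without replicate 1 of the high Liriopis dose. LPCAT3, at -0.34, was the only called one of 8 cholesterol efflux genes. Of 24 DNA replication genes 5 fell and ORC6, an origin recognition subunit, rose by 0.31. RRM2, the ribonucleotide reductase subunit that supplies nucleotides, had 147, 146 and 148 CPM in Polygalae cells and 172, 174 and 177 CPM in Vehicle cells (log2 fold change -0.25, edgeR adjusted p = 4.6e-07). MCM6 of the replicative helicase fell by 0.33, TYMS and UHRF1 each by 0.23 and CDC6 by 0.15, of which MCM6 kept its call with any of the 6 libraries left out. TYMS lost its call without any library but Polygalae replicate 1 (edgeR adjusted p up to 0.26), UHRF1 without any but Polygalae replicate 3 or Vehicle replicate 1 (up to 0.08) and CDC6 without any but Polygalae replicate 1 or Vehicle replicate 2 (up to 0.15). The replication count was 3 without Polygalae replicate 2 or Vehicle replicate 3, and without the Liriopis library 11 replication genes and 4 cholesterol genes were called. DHCR7 and LPCAT3 lost their call without Polygalae replicate 2, Polygalae replicate 3 or Vehicle replicate 2, and DHCR7 also without Vehicle replicate 1 (edgeR adjusted p up to 0.16 and 0.12). Among marker lists, ALDOC of astrocytes fell by 0.46, SNAP25 of neurons by 0.42, VIM by 0.18, and the leukocyte genes CSF1R, below 4 CPM, and PTPRC by 0.91 and 0.43, and no tested endothelial or oligodendrocyte marker was called. VIM lost its call without any library but Polygalae replicate 1 (edgeR adjusted p up to 0.12), and PTPRC without any 1 of the 6 (up to 0.18).

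Several of the largest single changes lay outside these lists. IGFN1, an immunoglobulin-domain protein named for muscle, had 19.8, 24.7 and 19.4 CPM in Polygalae cells and 5.99, 6.51 and 6.76 CPM in Vehicle cells, a log2 fold change of 1.73 (edgeR adjusted p = 3.3e-11). RND3, a small GTP-binding protein that acts on the actin cytoskeleton, had 113, 132 and 128 CPM in Polygalae cells and 56.6, 56 and 55.2 CPM in Vehicle cells (log2 fold change 1.15, edgeR adjusted p = 6.2e-19). FBXO32, the atrophy-related ubiquitin ligase atrogin-1, had 200, 180 and 169 CPM in Polygalae cells and 81.4, 80.6 and 81 CPM in Vehicle cells (log2 fold change 1.18, edgeR adjusted p = 6.9e-16). Genes were named as largest rises only where the lowest Polygalae library exceeded the highest Vehicle library, so that separation follows from the rule. UAP1L1 had 55.9, 56.8 and 56.9 CPM in Polygalae cells and 27.9, 27.9 and 27 CPM in Vehicle cells (log2 fold change 1.03). PSG1 (1.21), the lectin-like CLEC2B (1.06), the adaptor SH2D5 (1.05) and the salt-inducible kinase SIK1 (0.94) complete the 15 rises named by rule. The rule also asked for a level of at least 5 CPM. RSAD2 (1.74) and RRAGD (1.43) rose more than SIK1 but lay below that level. PSG1 belongs to a cluster of near-identical genes, so its count is uncertain.

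Among the largest falls, PADI2 had 4.14, 3.79 and 4.19 CPM in Polygalae cells and 9.46, 9.68 and 9.89 CPM in Vehicle cells, a log2 fold change of -1.26 (SE 0.12, edgeR adjusted p = 1.2e-10). LGR6, a receptor for R-spondins in WNT signalling, had 2.97, 2.87 and 3.39 CPM in Polygalae cells and 6.14, 6.08 and 7.34 CPM in Vehicle cells (log2 fold change -1.08, edgeR adjusted p = 2.9e-08). Genes were named as largest falls only where every Polygalae library was below every Vehicle library, with a mean of at least 5 CPM in Vehicle cells. The hyaluronan synthase HAS2 fell by 0.75, the receptor NOTCH3 by 0.76, the circadian factor HLF by 0.81, IGSF1 by 0.83 and RNF112 by 0.78 on the log2 scale. HMCN1, a very large matrix protein, C4B of complement and PPL fell by 0.85, 0.82 and 0.76, with weaker tests. HMCN1 had edgeR adjusted p between 0.065 and 0.088 without Polygalae replicate 1, Polygalae replicate 3, Vehicle replicate 2 or Vehicle replicate 3. C4B, which has a near-identical neighbour in the same cluster and is uncertain for that reason, had edgeR adjusted p of 0.16 without Polygalae replicate 1, 0.068 without Vehicle replicate 1 and 0.053 without Vehicle replicate 3. PPL had edgeR adjusted p of 0.086 without Vehicle replicate 3.

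The comparison that stays within libraries named with 4 sets Polygalae at 10 µg/mL against Aucklandiae Radix, another root extract, at 20 µg/mL. Here 441 genes were higher and 397 lower in Polygalae cells, 4.71% of tested genes, 2.48% higher and 2.23% lower, and herb and dose differ together. HMOX1 had 66.3, 63.5 and 56.3 CPM in Aucklandiae cells, below the 199 to 224 CPM of Polygalae cells, a log2 difference of 1.76 (SE 0.10, edgeR adjusted p = 5.5e-18). GDF15 had 4.32, 3.7 and 3.51 CPM in Aucklandiae cells (log2 difference 1.34, edgeR adjusted p = 4e-08). SQSTM1 had 603, 568 and 544 CPM there (0.99, edgeR adjusted p = 3.2e-14). All 3 Polygalae libraries lay above all 3 Aucklandiae libraries for these genes. The lysosome list had 14 rises and 0 falls of 32, interferon-stimulated genes 7 and 0 of 24, NRF2 targets 8 and 1 of 26, and endoplasmic reticulum chaperones 0 rises and 6 falls of 21. In the same order the list medians were 0.25, 0.27, 0.01 and -0.19 on the log2 scale. The count of calls was 476 without Polygalae replicate 2, 540 without Polygalae replicate 3, 532 without Aucklandiae replicate 1 and 2053 without replicate 1 of the high Liriopis dose.

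Some collagens were also lower in Polygalae than in Aucklandiae cells. There 6 of 19 collagens and 2 of 29 matrix glycoproteins were called lower and 0 higher, beside 2.23% of all tested genes called lower, with medians of -0.20 and -0.18, and whether these differences are smaller than those from Vehicle was not tested. COL1A2 had 1612, 1556 and 1601 CPM in Aucklandiae cells, between the Polygalae and the Vehicle libraries (log2 difference -0.37, edgeR adjusted p = 0.0018). TNC and VCAN missed the threshold, at -0.59 and -0.52 (edgeR adjusted p = 0.061 for each), as did HMCN1, C4B and PPL. PADI2 had 7.1, 6.43 and 6.54 CPM in Aucklandiae cells, again between the other groups, with a log2 difference of -0.73 (edgeR adjusted p = 8e-05). CCN1, a matricellular YAP target, had 650, 676 and 726 CPM in Aucklandiae cells beside 630, 684 and 704 CPM in Polygalae cells and 513, 499 and 496 CPM in Vehicle cells, so its difference lay between both extracts and Vehicle. The log2 difference of Polygalae from Aucklandiae was -0.03 for CCN1 (edgeR adjusted p = 0.95) and 0.03 for CCN2 (edgeR adjusted p = 0.97). ANKRD1 also missed the threshold there, at 0.40 (edgeR adjusted p = 0.058).

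The low doses of the other herbs, each at 20 µg/mL and set against the same Vehicle libraries, gave few or no calls. Aucklandiae had 1 call (0.00562%), CCN1 at a log2 fold change of 0.45. Liriopis had 1 (0.00562%), SDCBP2 at 2.47, and Longan had 1 (0.00562%), SFRP2 at -0.34. Schisandrae and Zizyphi had 0 (0%) by edgeR. At an unadjusted p under 0.05 there were 631 genes for Aucklandiae, 990 for Liriopis, 429 for Schisandrae, 467 for Longan and 744 for Zizyphi, beside 3053 for Polygalae at 10 µg/mL. With 17792 genes tested, many unchanged genes pass this cut, so these are not counts of changed genes. DESeq2 called 1, 3, 3, 4 and 3 genes in these herbs and 1346 in Polygalae. Without replicate 1 of the high Liriopis dose, edgeR called 16, 5, 0, 3 and 1. Aucklandiae libraries carry names of the same prefix as Polygalae libraries. SDCBP2 and SFRP2 were named after their values were seen. These doses are 2-fold above that of Polygalae in mass per volume.

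The genes called at 10 µg/mL were then read in 2 comparisons that use none of the 6 libraries. In Polygalae at 50 µg/mL against Aucklandiae at 20 µg/mL, 28.3% of all tested genes were called, 14.4% higher and 13.9% lower. Of the 535 genes higher at 10 µg/mL, 488 were higher there and 1 was lower, and their median log2 difference was 0.58. Of the 615 lower genes, 561 were lower and 0 higher, with a median of -0.56. In Polygalae at 250 against 50 µg/mL, 17.6% of tested genes were called, 7.18% higher and 10.4% lower. Of the 535 higher genes 179 rose further, 40 fell and 316 were not called. Of the 615 lower genes 296 fell further, 25 rose and 294 were not called. Medians were 0.13 and -0.23, beside 0.00 over all tested genes. The count of calls between 250 and 50 µg/mL was 5181 without replicate 1 of the high Liriopis dose.

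**Figure D4:**
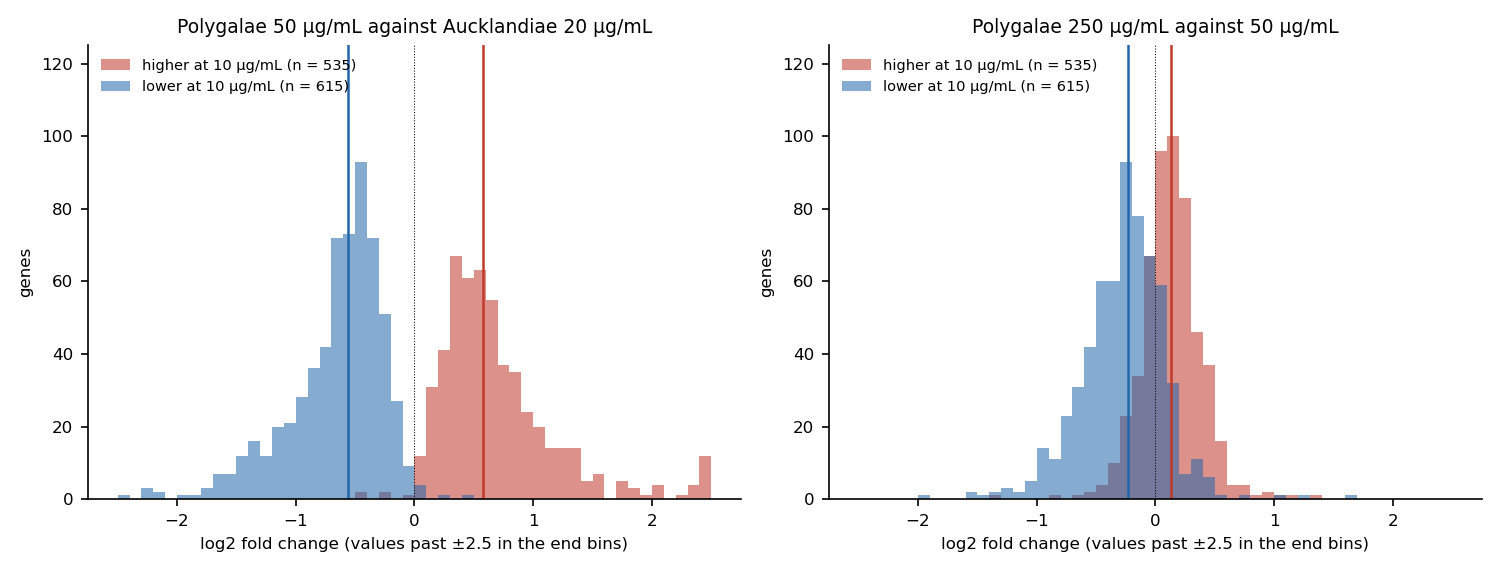
Log2 fold changes of the 535 genes higher and the 615 genes lower at 10 µg/mL, read in Polygalae 50 µg/mL against Aucklandiae 20 µg/mL (left) and Polygalae 250 against 50 µg/mL (right), with medians as vertical lines. The sets lie on opposite sides of 0 on the left, with medians of 0.58 and -0.56, and overlap around 0 on the right, with medians of 0.13 and -0.23.

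Over the 3 doses, several leading genes kept moving and a few turned. HMOX1 had log2 fold changes against Vehicle of 1.90, 3.61 and 4.14 at 10, 50 and 250 µg/mL, and GDF15 1.77, 4.07 and 5.43. COL1A2 had -0.55, -1.50 and -2.79, TNC -0.71, -1.80 and -3.37, HSPA5 -0.51, -1.17 and -1.90, and PADI2 -1.26, -2.80 and -4.27. These 3 comparisons share the Vehicle libraries. The direct test of 250 against 50 µg/mL shares none of them, and there HMOX1 differed by 0.54 (edgeR adjusted p = 1.8e-05), GDF15 by 1.36 (1.1e-12), COL1A2 by -1.28 (3.5e-17) and TNC by -1.57 (2.4e-08).

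Other genes were not called at the top step, or reversed. IGFN1 (0.13, edgeR adjusted p = 0.58), PSG1 (0.01, edgeR adjusted p = 0.99), FBXO32 (0.02, edgeR adjusted p = 0.89), SH2D5 (0.00, edgeR adjusted p = 0.99) and FLCN (0.09, edgeR adjusted p = 0.39) were not called between 250 and 50 µg/mL. UAP1L1 and GPNMB were lower at 250 than at 50 µg/mL, with log2 differences of -0.30 (edgeR adjusted p = 4.9e-05) and -0.28 (edgeR adjusted p = 0.0039). IL11, lower than Vehicle at every dose with -0.88, -1.45 and -0.89, was higher at 250 than at 50 µg/mL by 0.56 (edgeR adjusted p = 6.1e-09). HAS2 did the same, by 0.50 (edgeR adjusted p = 1e-05). CXCL8, lower at 10 µg/mL, had -0.66, -0.47 and 1.18 over the 3 doses against Vehicle.

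**Figure D5:**
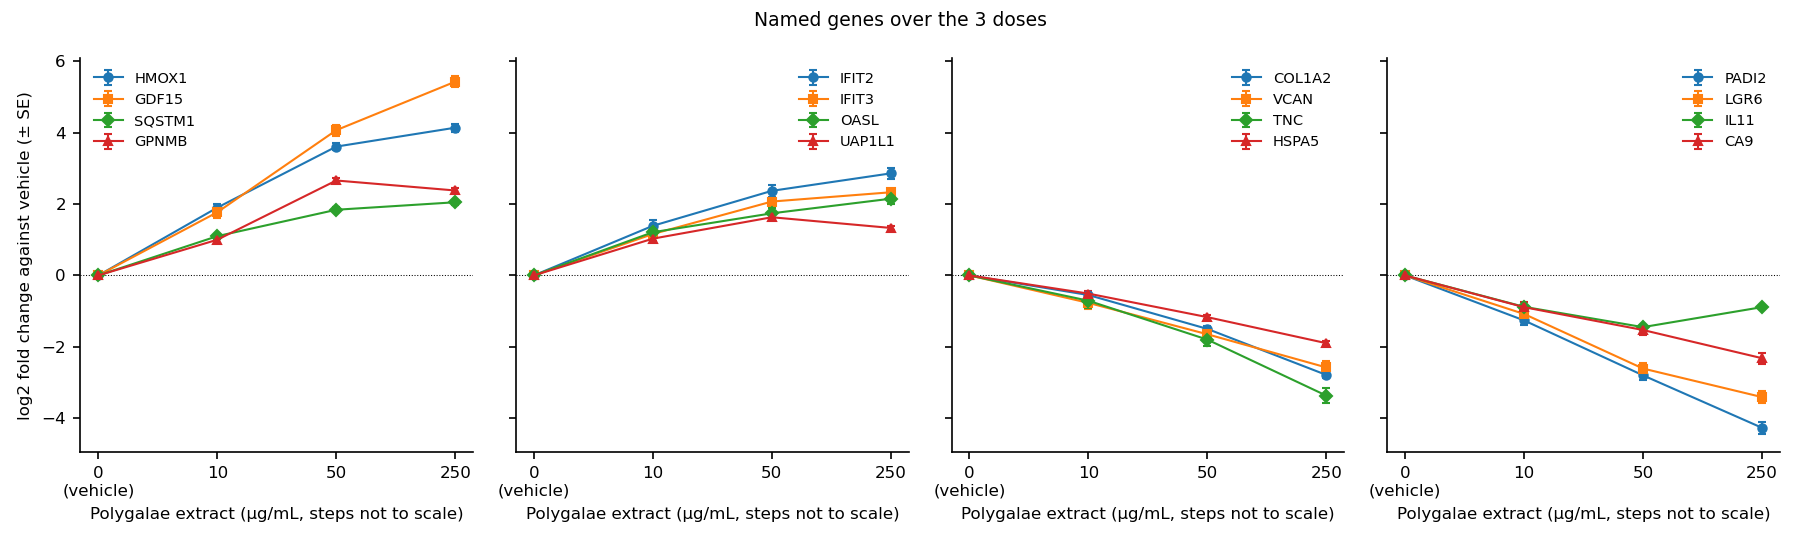
Log2 fold changes against Vehicle (± SE, n = 3 libraries per group) of 16 named genes at 10, 50 and 250 µg/mL of Polygalae extract, with Vehicle at 0 and dose steps not to scale. HMOX1 and GDF15 climb to 4.14 and 5.43, TNC and PADI2 descend to -3.37 and -4.27, and IL11, GPNMB and UAP1L1 turn between 50 and 250 µg/mL.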

How the data were processed

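mRNA of SW1783 cells was sequenced from directional libraries in pairs of 100 bp reads, per the labels' protocols. The authors deposited 1 table of RSEM expected counts for 60675 gene identifiers. FastQC 0.11.9, Trim Galore 0.6.5, STAR 2.7.3a, RSEM 1.3.3 and the builds GRCh38 and hg38 are named in the submitters' processing notes, with annotation release and strand setting not given in the sources used here, so genes that overlap on opposite strands may share reads. Fractions made up 11.02% of the deposited expected counts, and values were rounded to whole numbers. Library totals lay between 9.34 and 35.35 M counts (median 25.71). Symbols matched 41706 identifiers, and GENCODE 29 gave coordinates for 57055.

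The fit used edgeR 4.0.16 (R 4.3.3), its quasi-likelihood test and all 60 libraries, with 1 mean per group, TMM normalisation and 40 residual degrees of freedom, on 17792 genes that passed the expression filter at a minimum count of 10. The common dispersion was 0.00761. Calls were made at an adjusted p under 0.05 (Benjamini-Hochberg) within each comparison, SE was the fold change over the root of F, and CPM use TMM-normalised totals. The fit was tested on simulated data. Alternatives were DESeq2 1.42.0, other normalisation and filters, fewer libraries, the replicate number as a block, and leaving out each replicate, which for the gene lists was added after seeing the data. Genes were named by a rule: the 15 largest rises and 15 largest falls with separate groups and at least 5 CPM, the 4 called members with the smallest p of each list with at least 3 called, the 6 smallest p, and GDF15, HMOX1, COL1A2 and TNC. Other list members were named after their values were seen, and 1 gene is not reported here. The comparison, the 36 gene lists and the motifs were chosen with earlier results of these data known, so their counts are descriptions and no list was tested as a set. The series description says that samples with low RNA were excluded before deposit.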

Additional observations from a re-analysis of the deposited data

How the results depend on the processing

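Calls in Polygalae 10 µg/mL against Vehicle numbered 1150, and 608 with no filter on low counts (38863 genes tested), 1898 with only Vehicle and the Polygalae and Aucklandiae libraries in the fit, 2475 without replicate 1 of the high Liriopis dose and 1849 with only the 6 libraries. Leaving out each of the 6 libraries gave 679 to 889 calls, and all 1150 genes were among the 2475. Against Aucklandiae the count was 838, with 391, 1494 and 2053 under the first 3 of these settings and 476 to 593 with a library left out. Between 250 and 50 µg/mL it was 3133, and 5181 without that Liriopis library. DESeq2, its size factors in edgeR and a minimum count of 50 left 1150, 838 and 3133 each within 1.5 times its value. The number of called members against Vehicle moved in 22 of the 36 gene lists without that Liriopis library. It moved in 14 with only the 6 libraries, 2 by DESeq2 and 1 with the replicate number as a block. Moved means a change past 1.5 times, or to or from 0. Same-numbered replicates did not deviate together (correlations of -0.0389, -0.0194 and -0.0108 for Polygalae 10 µg/mL and Vehicle), and the fit with a replicate block gave 1163 calls against Vehicle. With each of the 6 libraries left out in turn, an alternative added after seeing the data, 56 of 136 called list members lost their call at least once. Of 81 named genes 66 kept their call under all 14 alternatives and none changed direction. Genes of low level were rarely called, so depth limits what a missing call there says. The cause of the differences between settings was not tested.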
